A study of Mus musculus with 16 samples.

Results

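AMP-activated protein kinase (AMPK) is the enzyme complex through which metformin has been proposed to act, and its mRNAs were examined here in mouse skeletal muscle. The genes were the 9 that encode its subunits and the kinases that switch it on, Prkaa1, Prkaa2, Prkab1, Prkab2, Prkag1, Prkag2, Prkag3, Stk11 and Camkk2. All 9 were found by gene name among the 23235 gene names of the mRNA table. They held 55 of the 82388 mRNA transcripts, and the counts of a gene's transcripts were summed.

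Skeletal muscle came from 16 male C57BL/6J mice, 4 in each of 4 groups, with 1 library per mouse. The control group ate a normal diet. The HFD group ate a high-fat diet with 60% fat, started at 6 weeks of age and fed for 8 weeks to make the mice insulin resistant. The HFD + RSV group and the HFD + metformin group then received resveratrol, a plant polyphenol, or metformin, a biguanide drug for diabetes, for 6 weeks. The muscle that was taken is not named in the sources used here. Some mice of the study were injected with insulin before tissue was collected, and the labels do not say which. All 4 HFD mice carry the number 7 in their labels, a number that no mouse of another group has, so whatever this number stands for and the untreated high-fat diet cannot be told apart.

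AMPK is a trimer. An alpha subunit carries the kinase domain, a beta subunit holds the trimer together and binds glycogen, and a gamma subunit binds adenine nucleotides and so senses falling energy. Trimers with alpha2, beta2 and gamma3 are characteristic of fast, glycolytic muscle fibres. The kinase is switched on when LKB1 (Stk11) phosphorylates a threonine in the activation loop of the alpha subunit, and CaMKK2 (Camkk2), a calcium-dependent kinase, can phosphorylate the same residue. Active AMPK raises glucose uptake and fat oxidation in muscle and restrains fat synthesis. Phosphorylation and protein were not measured in these data, which hold mRNA levels.

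Prkag3 mRNA was 2.21 times higher and Prkag2 mRNA 1.93 times lower in HFD than in control muscle. The mice of these groups did not overlap for either gene, and 18.3% of all genes showed no overlap. Neither difference passed the adjusted threshold in the fit of all 16 mice. The log2 fold change (log2FC) of Prkag3 was 1.15, and 0.65 with control mice 2, 3 and 4 left out. That of Prkag2 was -0.95, and -0.55 without control mouse 3. Against the HFD group, neither RSV nor metformin moved a member past that threshold.

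Totals per mouse ran from 20281801 to 34021101 counts over the mRNA and lncRNA tables. The 10 skeletal muscle markers were all detected, and their summed level ran from 64267 to 121270 CPM (the count scaled to a common library size, with TMM factors). The labels' extraction text speaks of retina, but the 4 retina markers found in the table summed to at most 1.33 CPM in each mouse. The libraries of control mice 2, 3 and 4 and of HFD + metformin mouse 3 stood apart. Their 8 fast fibre markers, such as Myh4, summed to between 62322 and 73337 CPM, while the other 12 mice lay between 98060 and 123540 CPM. The 7 slow fibre markers summed to 1036, 1511 and 2313 CPM in control mice 3, 4 and 2, against 93.6 CPM in control mouse 1 and 97.9 to 270 CPM in the HFD mice. The slow fibre sums were 116 to 1371 CPM in the HFD + RSV mice and 200 to 505 CPM in the HFD + metformin mice. The 7 adipocyte markers reached 4290 CPM in control mouse 3 and 3999 CPM in HFD + metformin mouse 3, and were at 65.3 to 780 CPM in the HFD group. The 3 brown adipocyte markers were at 742 and 173 CPM in the same 2 mice. They were at 25.4 to 115 CPM in the other control mice and at no more than 3.45 CPM in the HFD group. In bulk tissue, fewer cells or fibres of a type and less RNA per cell cannot be told apart.

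Compared per length, in summed FPKM over 16 mice, Prkaa2 stood first at 57.5 ± 5.45 (SD, n = 16) and Prkab2 second at 54.6 ± 23.8. These 2 did not separate, since Prkaa2 was above Prkab2 in 11 of 16 mice. Prkab2 was the higher in control mouse 1, HFD mice 3 and 4, HFD + RSV mouse 1 and HFD + metformin mouse 1. In these mice a Prkab2 transcript annotated as a retained intron, described below, held 29.7% to 58.6% of the gene's counts. It held 35.9% in HFD + metformin mouse 2, where Prkaa2 was the higher, so the order of the 2 genes depends in part on that transcript. Stk11 followed at 38.3 ± 4.30, Prkag3 at 28.0 ± 10.1 and Prkag1 at 17.0 ± 1.74. Stk11 was above Prkag3 in 13 mice and Prkag3 above Prkag1 in 12. Prkag2 was next at 7.49 ± 4.28, below Prkag1 in all 16 mice. Prkaa1 at 5.38 ± 1.28 and Prkab1 at 4.97 ± 1.11 FPKM were again close, in the same order in 11 of 16 mice, and Camkk2 was lowest at 2.78 ± 1.12 and below Prkab1 in all 16. The muscle-typical isoforms alpha2 and beta2 thus led their classes in FPKM in every mouse. The variation between mice was unequal, with a coefficient of variation of 9.48% for Prkaa2, 10.2% for Prkag1 and 11.2% for Stk11 but 36.1% for Prkag3, 43.6% for Prkab2 and 57.1% for Prkag2.

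**Figure D1:**
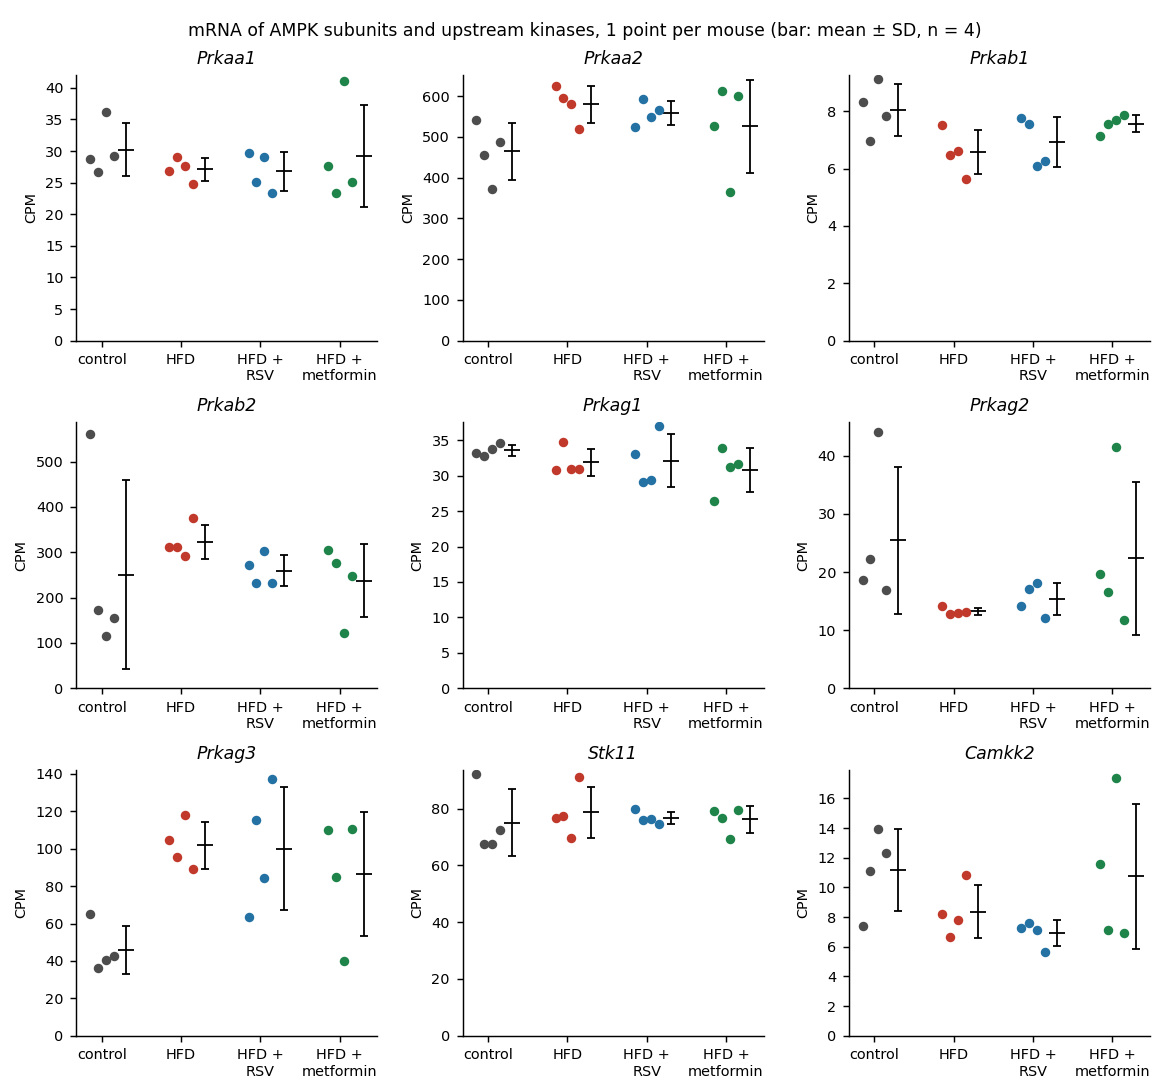
Each panel gives 1 gene, with CPM on a linear axis from 0, 1 point per mouse and the mean ± SD of the 4 mice of a group as a black bar. The 4 HFD mice lie above all control mice for Prkag3 and below all control mice for Prkag2. HFD + metformin mouse 3 lies among the control mice for Prkag3. For Prkag2 it lies near the highest of them only, at 41.5 CPM against 44.1 CPM in control mouse 3.

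The first question was whether the high-fat diet went with other levels of AMPK mRNA. In edgeR's quasi-likelihood test over all 16 mice, 0 of 9 members had an adjusted p under 0.05 between the HFD and control groups, where 374 of 15364 genes (2.43%) did. At an unadjusted p under 0.05 there were 3 of 9 members, Prkag3 on the higher side and Prkag2 and Prkab1 on the lower, against 24.2% of all genes. The 4 HFD mice did not overlap the 4 control mice for 2 members, Prkag3 and Prkag2, where 18.3% of all genes showed no overlap. The median log2FC of the members was -0.08 and that of all genes -0.02.

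Prkag3 encodes gamma3, the nucleotide-binding subunit found mainly in fast muscle fibres. It lies at chr1:74738922-74749221 on the minus strand (GRCm38). Prkag3 stood at 64.9, 36.1, 40.5 and 42.4 CPM in the 4 control mice. In the HFD mice Prkag3 stood at 105, 95.4, 118 and 89.2 CPM. Every HFD mouse was above every control mouse, and control mouse 1 was the highest control mouse. Prkag3 differed by a log2FC of 1.15 (SE 0.30, 95% interval 0.51 to 1.79), and its adjusted p of 0.0573 in edgeR missed the threshold. In the same comparison DESeq2 gave Prkag3 an adjusted p of 0.00478, edgeR on the 2 groups alone gave 0.0165, and edgeR without the metformin mice gave 0.0173. These settings called 1552, 998 and 1616 of all genes, in place of 374, and the last was chosen after seeing the data. Prkag3 passed in 7 of 25 alternatives. The fast fibre markers were at 68781, 62322 and 73337 CPM in control mice 2, 3 and 4 and at 109360 CPM in control mouse 1, while the HFD mice had 108130 to 117730 CPM. With control mice 2, 3 and 4 left out, Prkag3 gave a log2FC of 0.65 and an adjusted p of 0.961 in edgeR, with the lone control mouse assumed to vary like the other groups. The part of fibre composition in the Prkag3 difference was not tested.

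The RefSeq promoter of Prkag3 (GRCm38.p6, chr1:74748906-74749205, minus strand) is shown because Prkag3 had the largest difference of the 9 members. It covers 250 bases before to 50 bases after a start that the most abundant Prkag3 transcript shares. Capitals mark the E-box, the letters CANNTG on either strand, which muscle regulatory factors of the MyoD family can bind.
Prkag3: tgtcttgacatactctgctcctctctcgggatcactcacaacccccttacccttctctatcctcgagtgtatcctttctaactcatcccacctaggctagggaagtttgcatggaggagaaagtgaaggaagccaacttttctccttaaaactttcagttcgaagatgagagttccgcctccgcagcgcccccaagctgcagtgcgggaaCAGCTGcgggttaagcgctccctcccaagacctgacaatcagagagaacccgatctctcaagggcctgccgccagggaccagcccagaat
It held 1 E-box, which begins 40 bases before the start site. Of the 32851 promoters of this length, 72.3% held at least 1, so the match describes the sequence only.

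Most Prkag3 counts went to ENSMUST00000188073 (49.1% of the gene's counts), annotated as protein coding, and ENSMUST00000160732 (45.9%), annotated for nonsense-mediated decay. Both have the same exons over 2832 bases in GENCODE M21, so their counts cannot be told apart and only their sum can be read. Over the 9 members, 0 of 39 tested transcripts passed an adjusted p under 0.05 in edgeR between the HFD and control groups, where 7 of 44573 transcripts (0.0157%) did in the whole table. At an unadjusted p under 0.05 there were 8 of the 39, against 13.1% of all transcripts. Most of the 8 were transcripts of Prkag3, both of those named above among them, so they are not separate results.

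Prkag2 encodes gamma2, known from heart, where mutations cause glycogen storage and arrhythmia. It lies at chr5:24862744-25100642 on the minus strand. Prkag2 stood at 18.6, 22.3, 44.1 and 16.8 CPM in the control mice. The HFD mice had 14.1, 12.8, 12.9 and 13.1 CPM of it. The HFD mice were close together and all below the control mice, among which mouse 3 stood highest. The log2FC of Prkag2 was -0.95 (SE 0.35, 95% interval -1.70 to -0.20) and the adjusted p was 0.125 in edgeR. Without control mouse 3 the log2FC was -0.55 and the adjusted p 0.398 in edgeR, where 29 genes passed. Without HFD + metformin mouse 3, which only sets the spread here, the adjusted p was 0.0374, where 1588 genes passed. Control mouse 3 was also the control mouse with the highest adipocyte and brown adipocyte markers, whose part in the Prkag2 difference was not tested.

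Prkag2 is transcribed from several starts, and its transcripts differ in where the message begins. The 2 upstream RefSeq promoters are shown because the counts assigned to their transcripts behaved differently between mice. The distal one lies at chr5:25100593-25100892 and the middle one at chr5:24995704-24996003 (both minus strand, GRCm38.p6). Counts were divided among overlapping transcripts, so those of a single Prkag2 transcript are less certain than the gene sum. Capitals again mark E-boxes.
Prkag2 distal: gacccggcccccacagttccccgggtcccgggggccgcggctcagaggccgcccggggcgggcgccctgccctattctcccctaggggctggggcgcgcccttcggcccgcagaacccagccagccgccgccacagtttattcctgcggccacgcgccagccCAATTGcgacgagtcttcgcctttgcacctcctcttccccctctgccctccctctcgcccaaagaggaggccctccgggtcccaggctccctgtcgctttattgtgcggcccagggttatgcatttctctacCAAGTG
Prkag2 middle: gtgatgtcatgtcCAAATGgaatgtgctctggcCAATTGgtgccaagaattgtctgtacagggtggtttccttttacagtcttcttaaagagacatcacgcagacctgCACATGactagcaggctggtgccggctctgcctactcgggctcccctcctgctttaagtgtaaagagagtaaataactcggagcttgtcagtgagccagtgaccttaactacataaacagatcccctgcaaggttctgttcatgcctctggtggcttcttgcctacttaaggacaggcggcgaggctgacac
The distal window had 2 E-boxes and 69.7% G and C, and the middle window had 3 E-boxes and 50.3% G and C. At least 3 E-boxes were present in 17.6% of all promoters, and the median promoter had 52.7% G and C.

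The transcript from the distal start, ENSMUST00000030784 with 566 coding codons, took 63.4% of the Prkag2 counts. It stood at 11.01, 14.99, 33.8 and 10.8 CPM in the control mice and at 8.39, 5.66, 7.25 and 9.28 CPM in the HFD mice. It was at 28.9 CPM in HFD + metformin mouse 3 and at 7.604 to 11.4 CPM in the other 3 mice of that group. The transcript from the middle start, ENSMUST00000076306 with 443 coding codons, stood at 2.65 to 3.59 CPM in the control mice and at 0.41 to 3.41 CPM in the HFD mice, and at 3.63 CPM in HFD + metformin mouse 3. In control mouse 3 and HFD + metformin mouse 3 the distal transcript was high and the middle one was not. Transcripts that begin outside the RefSeq promoter windows were also high there. They were at 6.18 CPM in control mouse 3 against 2.08 to 3.67 CPM in the other control mice. In HFD + metformin mouse 3 they were at 7.73 CPM against 1.72 to 2.75 CPM in the others of its group. The most abundant of them, ENSMUST00000139698, begins at chr5:24908452, just outside the proximal RefSeq window at chr5:24908460-24908759. This class thus depends on where that window ends. The transcripts that begin inside the proximal window were at 1.13 CPM in control mouse 3 and 1.18 CPM in HFD + metformin mouse 3. The distal transcript had a log2FC of -1.19 (SE 0.44, adjusted p 0.266 in edgeR) between the HFD and control groups.

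**Figure D2:**
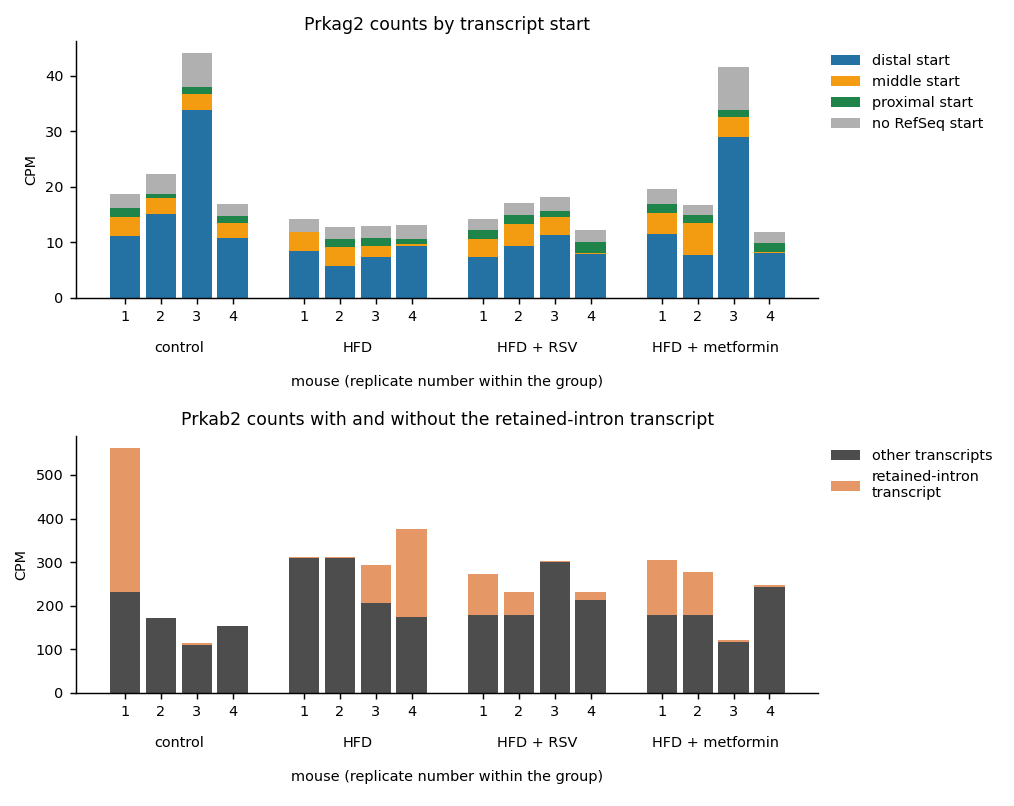
Stacked bars give CPM per mouse, with the 4 mice of each group side by side. The upper panel splits Prkag2 by transcript start, where the distal start reaches 33.8 CPM in control mouse 3 and 28.9 CPM in HFD + metformin mouse 3, and the lower panel splits Prkab2 into a retained-intron transcript and the rest.

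Prkag1 encodes gamma1, the subunit found in most tissues, at chr15:98812798-98831508 on the minus strand. Its 1 transcript stood at 32.8 to 34.6 CPM in the control mice and at 30.8 to 34.8 CPM in the HFD mice, with a log2FC of -0.08 (SE 0.09, 95% interval -0.27 to 0.12). It had the narrowest interval of the 9 members in this comparison.

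The shares of the 3 gamma mRNAs were compared in summed FPKM, since transcripts of different length collect different counts. Gamma3 made up 46.8%, 30.9%, 28.8% and 36.6% of gamma FPKM in the control mice. In the HFD mice the gamma3 share was 62.2%, 57.8%, 65.0% and 58.1%, above every control mouse. Gamma1 went from a mean of 42.3% to 29.9% and gamma2 from 21.9% to 9.31%. Each of these 3 differences had an exact two-sided permutation p of 0.0286, which is the smallest that 4 mice against 4 can give. The adjusted p of each was 0.107 over 15 share tests. The 3 shares of a mouse add to a fixed total, so these are not separate results. Prkag1 itself had a log2FC of only -0.08 in this comparison. In the HFD + RSV group the mean shares were 58.7% gamma3, 30.5% gamma1 and 10.8% gamma2. In the HFD + metformin group the mean gamma3 share was 53.2%, with 29.8% in mouse 3 and 55.4% to 63.7% in the other mice. The gamma shares of the treated groups differed from the HFD group by -7.60 percentage points (gamma3, metformin) to 7.07 points (gamma2, metformin), with exact permutation p-values of 0.2 or more.

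**Figure D3:**
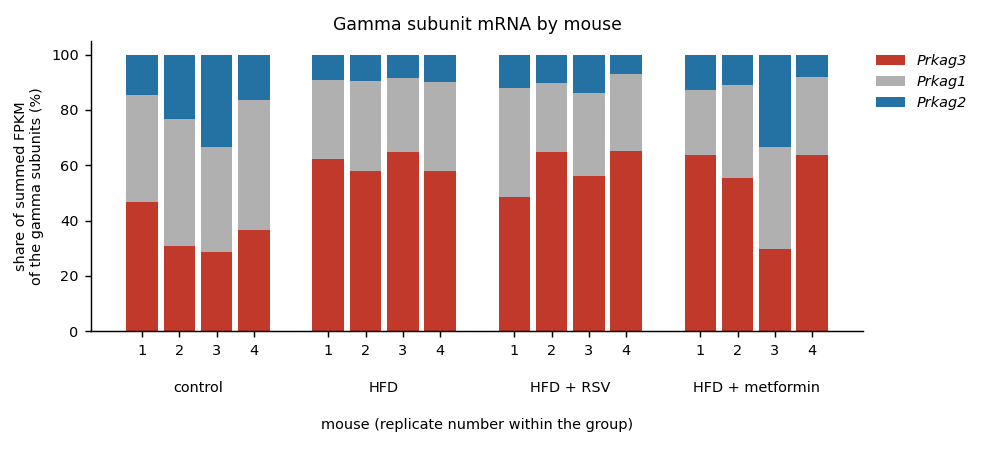
Each bar is 1 mouse, and its height adds to 100% of the summed FPKM of Prkag1, Prkag2 and Prkag3. Prkag3 takes 57.8% to 65.0% in the HFD mice and 28.8% to 46.8% in the control mice, and HFD + metformin mouse 3 has 29.8%.

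The alpha subunits carry the kinase domain, and Prkaa1 and Prkaa2 encode alpha1 and alpha2. Prkaa2, the main form of muscle, lies at chr4:105029874-105109890 on the minus strand, and Prkaa1 lies at chr15:5143861-5181899 on the plus strand. The codons around the activation-loop threonine, where both upstream kinases act, are shown from GENCODE M21 coding sequence to show how alike the paralogs are there. The threonine codon is in capitals.
Prkaa1: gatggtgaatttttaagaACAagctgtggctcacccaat
Prkaa2: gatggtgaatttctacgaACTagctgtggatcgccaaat
The threonine is codon 183 of the longer Prkaa1 reading frame and codon 172 of Prkaa2. Of these 39 bases 6 differed, and all 13 codons encode the same residues. Over the full proteins, translated from the same annotation, 76.4% of 546 aligned residues were identical. Counted likewise, with gaps left out, identity was 71.3% of 268 residues between beta1 and beta2. It was 75.2% of 330 between gamma1 and gamma2 and 63.0% of 330 between gamma1 and gamma3. Between gamma2 and gamma3 it was 49.6% of 488, a longer stretch, so this value cannot be ranked against those with gamma1.

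Prkaa2 stood at 542, 455, 373 and 487 CPM in the control mice. It stood in the HFD mice at 626, 595, 581 and 518 CPM. The groups overlapped, since HFD mouse 4 was below control mouse 1. The log2FC of Prkaa2 was 0.32 (SE 0.15, 95% interval 0.00 to 0.64) with an adjusted p of 0.21 in edgeR. Prkaa1 ran from 26.6 to 36.2 CPM in the control mice and from 24.8 to 29.1 CPM in the HFD mice, with a log2FC of -0.16 (SE 0.16). Alpha2 made up 85.7% to 91.6% of alpha FPKM in the control mice and 92.2% to 93.1% in the HFD mice, without overlap. This difference of 2.85 percentage points had an exact permutation p of 0.0286 and an adjusted p of 0.107. Prkaa2 is assigned a single transcript in the table, whereas Prkaa1 has 2, of which ENSMUST00000228218 took 89.6% of the counts.

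The beta subunits, beta1 (Prkab1) and beta2 (Prkab2), bridge alpha and gamma and carry the glycogen-binding domain. Prkab1 lies at chr5:116013586-116024508 on the minus strand and Prkab2 at chr3:97658193-97673812 on the plus strand. Prkab1 stood at 8.31, 6.95, 9.11 and 7.85 CPM in the control mice and at 7.53, 6.49, 6.63 and 5.65 CPM in the HFD mice. Only HFD mouse 1 reached into the control range. The log2FC of Prkab1 was -0.29 (SE 0.12, 95% interval -0.54 to -0.04) with an adjusted p of 0.148 in edgeR. Its FPKM values are spread over several transcripts, the most abundant of which, ENSMUST00000111999, held 33.2% of the counts.

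Prkab2 stood at 561, 173, 115 and 154 CPM in the control mice. The HFD mice were at 312, 311, 292 and 376 CPM. The control mice thus split, with mouse 1 above all HFD mice and the other 3 below all of them. Much of this came from 1 row. ENSMUST00000152731, annotated as a retained intron, held 58.6% of the Prkab2 counts in control mouse 1, 53.5% in HFD mouse 4 and 1.01% to 4.43% in the other control mice. Of its 3442 bases, 3423 lie in exons of the coding transcript ENSMUST00000045743, so reads from these bases fit both. Without that row Prkab2 stood at 232, 171, 110 and 153 CPM in the control mice and at 309, 309, 205 and 175 CPM in the HFD mice, which still overlap. With the row, the log2FC was 0.36 (SE 0.40) and the adjusted p 0.613 in edgeR. With protein-coding transcripts only it was 0.55 and 0.283. Leaving out control mouse 1 gave a log2FC of 1.13 and an adjusted p of 0.0301 in edgeR, where 773 genes passed in place of 374. The other 3 control mice, kept in that fit, had 62322 to 73337 CPM of fast fibre markers, and control mouse 1 had 109360 CPM. Over 25 alternatives the log2FC of Prkab2 lay between -0.80 and 1.13, and 1 passed. The part of fibre composition in these values was not tested.

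Stk11 encodes LKB1, the kinase that activates AMPK when energy falls, and lies at chr10:80115803-80130682 on the plus strand. Stk11 stood at 92.3, 67.6, 67.5 and 72.6 CPM in the control mice and at 76.7, 77.4, 69.8 and 91.2 CPM in the HFD mice, so the groups overlapped almost entirely. The log2FC of Stk11 was 0.07 (SE 0.10, 95% interval -0.15 to 0.29). Its counts moved between transcripts from mouse to mouse. The coding transcript ENSMUST00000003152 was at 35.6, 2.57, 3.28 and 33.0 CPM in the control mice, while ENSMUST00000144883, annotated for nonsense-mediated decay, was at 7.58, 42.1, 33.3 and 13.6 CPM in the same mice. Where one was high the other was low, and the gene sum varied far less than either.

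Camkk2 encodes the calcium-dependent kinase upstream of AMPK and lies at chr5:122731170-122779409 on the minus strand. Camkk2 stood at 7.41, 11.1, 13.9 and 12.3 CPM in the control mice. Its level in the HFD mice was 8.18, 6.65, 7.82 and 10.8 CPM. The groups overlapped, and the log2FC of Camkk2 was -0.42 (SE 0.27) with an adjusted p of 0.356 in edgeR. It had the lowest level per length of the 9 members, and its most abundant transcript, ENSMUST00000198029, held 34.9% of the counts.

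The next question was whether either treatment moved the same mRNAs in mice on the high-fat diet. Between the HFD + metformin and HFD groups, 0 of 9 members passed an adjusted p under 0.05 in edgeR, where 2 of 15364 genes (0.013%) did. DESeq2 called 0 members as well, among the 32 genes that it called. At an unadjusted p under 0.05 there was 1 of 9 members, Prkag2, against 8.02% of all genes. No member was without overlap between these groups, where 3.72% of all genes were.

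Prkag2 stood at 19.6, 16.6, 41.5 and 11.8 CPM in the HFD + metformin mice, against 12.8 to 14.1 CPM in the HFD mice. Mouse 3 of the treated group stood far above the others and mouse 4 below all HFD mice. The log2FC of Prkag2 was 0.76 (SE 0.35, 95% interval 0.01 to 1.51) with an adjusted p of 0.618 in edgeR, and without mouse 3 it was 0.27. Prkag3 stood at 110, 84.7, 39.9 and 111 CPM in the HFD + metformin mice, so 3 of 4 were in or near the HFD range of 89.2 to 118 CPM and mouse 3 was in the control range. Its log2FC was -0.24 (SE 0.30, 95% interval -0.87 to 0.40). In the same mouse 3 Prkaa2 was at 366 CPM against 526 to 612 CPM in the other mice of the group, Prkab2 at 121 against 247 to 305 CPM, and Camkk2 at 17.4 against 6.90 to 11.6 CPM. This mouse had the fast fibre and adipocyte marker levels given above, and their part in these values was not tested.

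The narrowest intervals were those of Stk11, at 79.2, 76.8, 69.2 and 79.4 CPM with metformin and a log2FC of -0.05 (95% interval -0.27 to 0.17), and for Prkag1, at 26.5 to 33.9 CPM and -0.05 (-0.24 to 0.15). Prkab1 gave 0.20 (-0.05 to 0.45), Prkaa1 0.11 (-0.22 to 0.44), Prkaa2 -0.14 (-0.46 to 0.18), Camkk2 0.36 (-0.22 to 0.94) and Prkab2 -0.44 (-1.31 to 0.42), all as log2FC with 95% intervals. The intervals reached from 0.19 either side for Prkag1 to 0.86 for Prkab2. A difference larger than this reach could still miss the adjusted threshold, as Prkag2 did at 0.76 with an interval of 0.01 to 1.51.

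Between the HFD + RSV and HFD groups, 0 of 9 members passed an adjusted p under 0.05 in edgeR or DESeq2. Of all genes, 0 of 15364 (0%) did in edgeR and 8 genes did in DESeq2. None of the 9 had an unadjusted p under 0.05, where 4.72% of all genes did, and none was without overlap, where 4.2% of all genes were. Prkag3 stood at 63.3, 116, 84.2 and 137 CPM in the HFD + RSV mice. It spanned more than the HFD range on both sides, with a log2FC of -0.03 (SE 0.30, 95% interval -0.66 to 0.61). Prkag2 stood at 14.1, 17.1, 18.2 and 12.1 CPM, with a log2FC of 0.22 (SE 0.35). Camkk2 stood at 7.24, 7.63, 7.10 and 5.63 CPM, with a log2FC of -0.28 (SE 0.27). The other 6 members had log2FC values between -0.31 and 0.07.

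**Figure D4:**
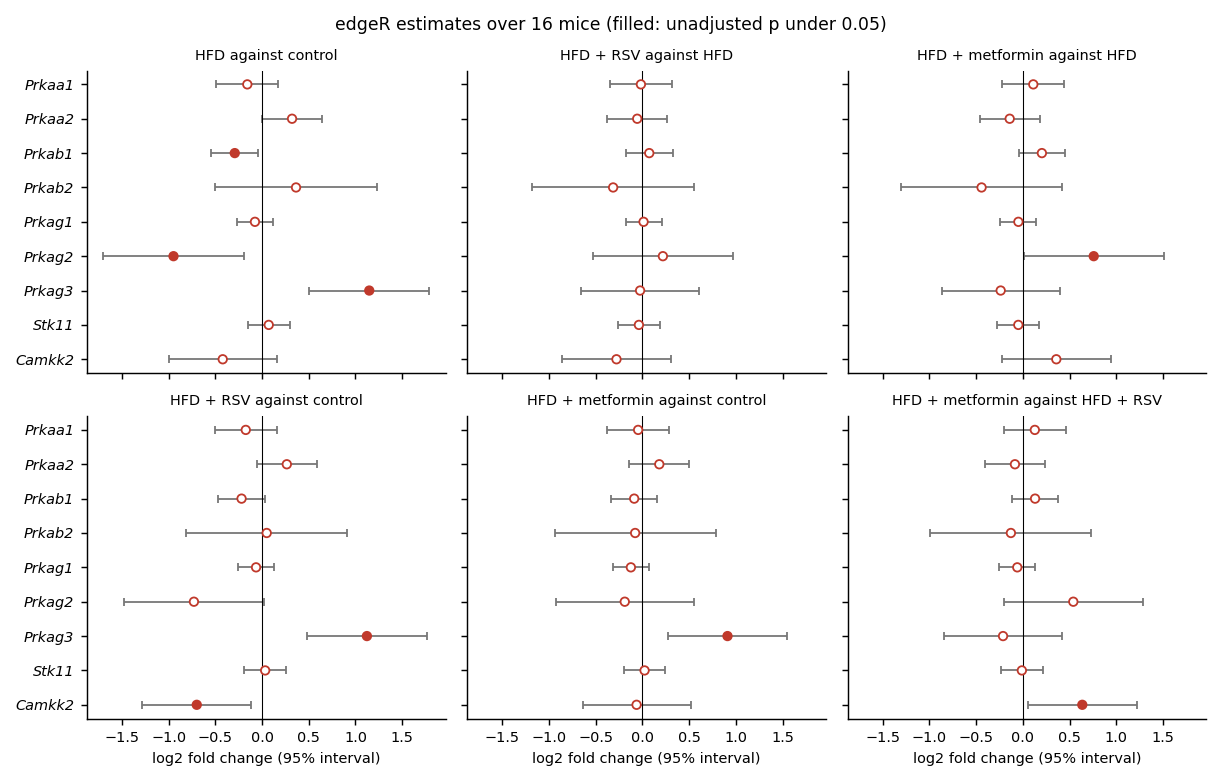
Points give the edgeR log2FC of the 9 members in each of the 6 comparisons and bars the 95% interval, with filled points at an unadjusted p under 0.05. In the comparisons with the HFD group all 9 intervals reach 0 for RSV and 8 of 9 do for metformin, and Prkag3 lies at 0.91 to 1.15 in all 3 comparisons with the control group.

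Prkag3 also gave the largest log2FC of the 9 members in both treated groups against the control group. All 3 comparisons with the control group share the same 4 control mice. Prkag3 gave a log2FC of 1.12 (SE 0.30, adjusted p 0.153 in edgeR) in the HFD + RSV group and 0.91 (SE 0.30, adjusted p 0.338) in the HFD + metformin group. HFD + RSV mouse 1, at 63.3 CPM, lay just under control mouse 1, so the HFD + RSV group overlapped the control group in 1 mouse. Without HFD + metformin mouse 3, the adjusted p of Prkag3 in edgeR was 0.0312 for RSV and 0.0429 for metformin. In that fit 261 genes passed for RSV and 180 for metformin, in place of 1 and 0 with all 16 mice. For metformin, the mouse left out was the one in the control range, at 39.9 CPM of Prkag3. With control mice 2, 3 and 4 left out, the log2FC of Prkag3 was 0.63 and 0.41. In both comparisons 0 of 9 members passed the adjusted threshold, where 0.00651% (RSV) and 0% (metformin) of all genes did. At an unadjusted p under 0.05 there were 2 of 9 members for RSV, Prkag3 and Camkk2, against 15.8% of all genes, and 1 of 9 for metformin, Prkag3, against 9.5%. Camkk2 differed by -0.70 (SE 0.27, adjusted p 0.248 in edgeR) between HFD + RSV and control mice.

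The 2 treatments were also compared with each other. Here 0 of 9 members passed an adjusted p under 0.05 in edgeR, where 0% of all genes did, and 1 of 9, Camkk2, had an unadjusted p under 0.05, against 4.68% of all genes. Camkk2 stood at 11.6, 7.12, 17.4 and 6.90 CPM with metformin and at 5.63 to 7.63 CPM with RSV, so 2 of the 4 metformin mice were within the RSV range. The log2FC was 0.64 (SE 0.27) with an adjusted p of 0.962 in edgeR, and it was 0.30 without HFD + metformin mouse 3.

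**Figure D5:**
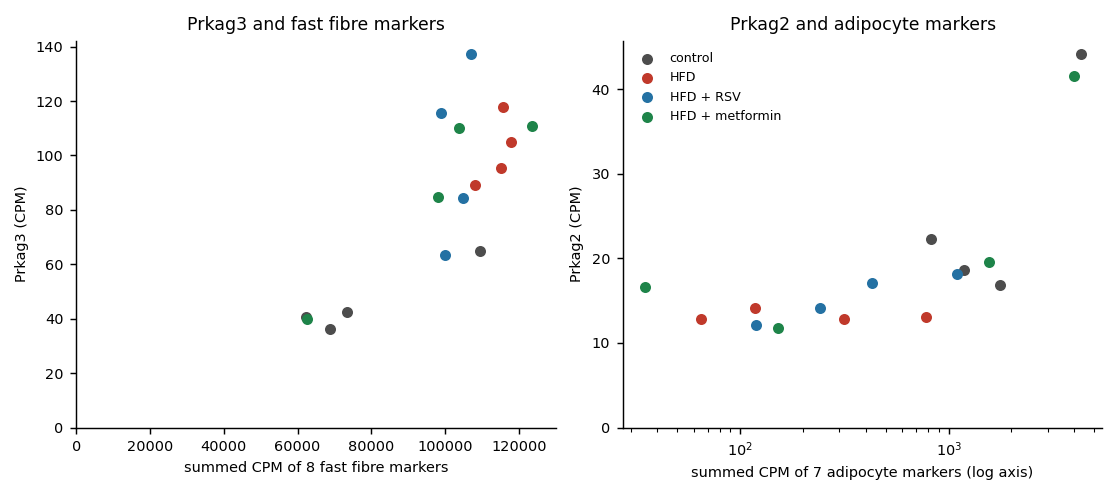
Each point is 1 mouse, coloured by group. The left panel plots Prkag3 (CPM) on the summed CPM of 8 fast fibre markers and the right panel Prkag2 (CPM) on the summed CPM of 7 adipocyte markers on a log axis, and control mice 2, 3 and 4 with HFD + metformin mouse 3 sit together at the lower left of the first.

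The genes most like these 2 members were sought over all 16 mice by Pearson's r of log2 CPM, as a description with no test, since the mice share their groups and fibre markers. For Prkag3 they included Smarcd3 (r = 0.967), a chromatin remodelling subunit of heart and muscle, and Aamdc (r = 0.962). Smarcd3 stood at 49.2 to 66.6 CPM in the control mice and at 68.1 to 75.4 CPM in the HFD mice. For Prkag2 they were Syne2 (r = 0.958), which anchors nuclei to the cytoskeleton, Ppp2r5a (r = 0.957), a regulatory subunit of protein phosphatase 2A, and Peli2 (r = 0.954), a ubiquitin ligase. Syne2 was highest in HFD + metformin mouse 3, at 212 CPM, and control mouse 3, at 194 CPM, the mice where Prkag2 was highest.

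Other genes around AMPK were counted in lists. Of 17 AMPK substrates, all 17 passed the filter on low counts. At an adjusted p under 0.05 in edgeR, 0 rose and 1 fell in HFD mice against control mice, where 2.43% of all genes passed. The list's median log2FC was -0.01 and that of all genes -0.02. The gene was Acaca, acetyl-CoA carboxylase 1, the enzyme of fat synthesis that AMPK inhibits by phosphorylation. Acaca stood at 284, 278, 526 and 98.4 CPM in the control mice and at 24.9 to 34.0 CPM in the HFD mice. Every control mouse was above every HFD mouse. Acaca fell by 3.38 on the log2 scale (SE 0.55, adjusted p 0.0156 in edgeR), and this call was lost without control mouse 2, HFD mouse 1 or HFD mouse 2 and without control mice 2, 3 and 4 together (log2FC -3.32, adjusted p 0.159). It stood at 23.7 to 135 CPM in the HFD + metformin mice, highest in mouse 3, and at 26.1 to 44.0 CPM in the HFD + RSV mice. The 7 adipocyte markers, cells in which Acaca is also abundant, summed to 827 to 4290 CPM in the control mice and to 65.3 to 780 CPM in the HFD mice, again without overlap, and their part in the Acaca difference was not tested.

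Of 3 further lists, none had a gene past the threshold in HFD against control mice, where 2.43% of all genes were. These were 12 kinases related to AMPK that LKB1 also phosphorylates (11 passed the filter, median log2FC -0.20), 7 enzymes of adenine nucleotides and phosphocreatine (7 passed, median 0.39) and 5 metformin transporters (2 passed, median -0.75). No gene of these lists passed an adjusted p under 0.05 in edgeR in the other 5 comparisons. In the HFD + metformin group against the HFD group the list medians were -0.03 for the substrates, -0.01 for the related kinases -0.18 for the nucleotide enzymes and 0.90 for the 2 transporters, beside 0.02 for all genes.

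Among the cell type markers counted likewise, 2 of 3 brown adipocyte markers, Cidea and Elovl3, fell between the HFD and control groups. Both had an adjusted p under 0.05 in edgeR, where 2.43% of all genes did, and no other marker passed. Cidea, a lipid droplet protein of brown fat, stood at 21.5 to 285 CPM in the control mice and at 0.78 to 2.39 CPM in the HFD mice (log2FC -6.30, SE 1.53, adjusted p 0.0474), a call that held under 10 of 25 alternatives. The median log2FC was -3.55 for the slow fibre list, 0.53 for the fast fibre list and -1.91 for the adipocyte list.

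In the lncRNA table, 17 rows overlapped the loci of the members, and 7 of them had enough counts to be tested. In edgeR 0 of 7 passed an adjusted p under 0.05 between the HFD and control groups, where 284 of 17599 rows (1.61%) did. At an unadjusted p under 0.05 there were 3 of the 7, against 17.6% of all rows. NONMMUT001552.2 lies within Prkag3 at chr1:74742543-74743786 and shares 0 bases with its exons. It had 12, 10, 10 and 11 counts in the control mice. In the HFD mice it had 33, 32, 26 and 13 counts. In FPKM the groups overlapped, with 1.22 in HFD mouse 4 and 1.27 in control mouse 1. Its log2FC was 1.32 (SE 0.35, adjusted p 0.0641 in edgeR), and it was 1.34 in the HFD + RSV and 1.39 in the HFD + metformin group against the control group. At Prkaa2, NONMMUT048444.2 (chr4:105029166-105031187), of which 1314 bases lie over exons of the gene, gave a log2FC of 0.58 (SE 0.18, adjusted p 0.107). NONMMUT048447.2, at chr4:105077522-105079036 and outside the exons, gave 0.48 (SE 0.20, adjusted p 0.232). The strand setting of the counting is not given in the sources used here, so reads of these rows and reads of the member's own pre-mRNA or exons cannot be told apart.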

How the data were processed

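Skeletal muscle RNA of the 16 mice was sequenced by the authors on an Illumina NovaSeq after removal of ribosomal RNA, and StringTie was used for counting. The labels' processing notes name fastp, HISAT2 and GRCm38. The deposited tables hold expected counts per transcript, which are whole numbers, and FPKM values that the authors calculated beside them. Of 55 member transcripts, 54 have the positions of GENCODE M21.

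Counts were summed per gene name, and 4 transcripts split over 2 lines were joined. Genes were filtered with filterByExpr (minimum count 10, minimum total 15), leaving 15364, scaled by TMM and tested with edgeR 4.0.16 (robust quasi-likelihood, 1 fit of all 16 mice, Benjamini-Hochberg over all genes) in R 4.3.3. The script was tested on simulated data. Isoform shares were compared by exact two-sided permutation tests over mice. DESeq2 1.42.0, limma 3.58.1 on log2(FPKM + 0.1) and other settings served as alternatives. The study's thresholds (p under 0.05 and an absolute log2FC above 1) were one of them, with p taken here as unadjusted, which the study does not specify. Intervals are at 95%.

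The 9 members, the gene lists and the markers were chosen with earlier results of these data known. All 9 members were described. From the other lists, at most 4 genes past the threshold were named, and for the members with the smallest adjusted p the 3 genes most like them. A gene that this rule names, and the list that holds it, are not reported here. Nothing says whether the labels' mouse numbers mark cages or batches. Promoters come from RefSeq (GRCm38.p6), where all 9 members were found.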

Additional observations from a re-analysis of the deposited data

Results flagged for a closer look

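In 56 groups of 4 mice (9 genes and 5 shares in 4 groups each), 3 had 1 mouse whose gap to the next mouse, as a part of the group's range, was above Dixon's 95% critical value. Chance gives this in about 1 of 20 such groups. Prkab2 was at 561 CPM in control mouse 1, against 115 to 173 CPM in the other control mice, and the retained-intron transcript described for that gene held 58.6% of its counts there. Prkag1 was at 34.8 CPM in HFD mouse 2, against 30.8 to 31.0 CPM in the others. The alpha2 share of alpha FPKM was 85.7% in control mouse 3, against 90.6% to 91.6% in the others. No member had all RSV mice on one side of the HFD mean and all metformin mice on the other.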

How the results depend on the processing

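The count of members past an adjusted p under 0.05 was 0 of 9 in each comparison. Between the HFD and control groups it was 1 with DESeq2, with only the 2 groups in the fit and by the study's thresholds, with p taken as unadjusted (Prkag3 each time). Between the HFD + RSV and control groups it was 1 with DESeq2 and by those thresholds. Leaving out 1 mouse at a time gave 0 to 2 for HFD against control (2 without control mouse 1 or without HFD + metformin mouse 3, 1 without HFD + metformin mouse 4), and 0 to 1 for HFD + RSV and for HFD + metformin against control (1 without HFD + metformin mouse 3). Of the alternatives chosen after seeing the data, the fit of 12 mice gave 2 for HFD and 1 for HFD + RSV against control, and leaving out control mouse 3 and HFD + metformin mouse 3 gave 1 for HFD against control. The cause of these changes was not tested. For HFD + RSV against control, the genes past the threshold, 1 here, were 358 with DESeq2, 231 in the fit of 12 mice and 261 without HFD + metformin mouse 3. For HFD + metformin against control they were 0 here, 146 with DESeq2 and 180 without that mouse. With control mouse 3 and HFD + metformin mouse 3 left out, 555 genes passed for HFD against control. Genes that met the study's thresholds were not counted over the whole table. RLE scaling, no filter, limma on FPKM and protein-coding transcripts gave 0 in every comparison in which they were run. The number of all genes past the threshold for HFD against control, 374 here, was 1552 with DESeq2, 998 with the 2 groups alone, 197 with limma, 158 without a filter, 1616 in the fit of 12 mice, 131 with protein-coding transcripts, 11 without control mice 2, 3 and 4, and between 16 (without control mouse 2) and 1588 (without HFD + metformin mouse 3) with 1 mouse left out. The call for Acaca held under 21 of 25 alternatives, with the same sign in all. Over its 25 alternatives, the log2FC of Prkag3 for HFD against control lay between 0.65 and 1.36, its adjusted p between 0.00478 and 0.961, and 7 passed. Of 54 pairs of member and comparison, 27 kept their sign under every alternative. The sign changes concern differences with an unadjusted p of 0.05 or more. Shares of counts in place of FPKM changed no call among the 15 share tests, and with 1 mouse left out the exact test of 4 against 3 cannot pass (smallest p 0.0571). No paired analysis was possible because no label gives a replicate number or says what the numbers in the mouse names mark. With 4 mice a group, differences smaller than the reach of the intervals to either side could not be told from 0. Some larger ones also missed the adjusted threshold.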
